A study of Mus musculus with 66 samples.

Results

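The 9 genes described here, Hmgcs1, Mvd, Idi1, Fdps, Fdft1, Sqle, Lss, Cyp51 and Dhcr7, encode enzymes that turn acetyl-CoA into cholesterol. They were picked by gene symbol, and each has 1 transcript in the RNA table of mouse small intestinal organoids, so that they make up 9 of its 9481 transcripts and 9 of its 8978 gene symbols. Organoids are cultures of intestinal epithelium that grow from stem cells in a gel. All cultures came from Lgr5 GFPDTR/+ mice, which carry a knock-in of GFP and the diphtheria toxin receptor at the stem cell gene Lgr5, and all were given EGF and Noggin. ENR organoids also received R-Spondin, a ligand that strengthens Wnt signalling, and served as the mixed culture. CV organoids were ENR organoids with 3 µM CHIR99021, an inhibitor of GSK3 that activates Wnt signalling, and 1 mM valproic acid, an inhibitor of histone deacetylases, and were made to enrich stem cells. EN organoids were ENR organoids without R-Spondin-1, made to deplete stem cells and enrich enterocytes. The paper states a longer time in their medium for CV than for EN, so CV and EN differed in time as well as in additives. RNA and ATAC-seq had 4 libraries per culture, the histone marks H3K27ac, H3K4me3 and H3K27me3 had 3, and binding of the nuclear receptor Hnf4g had 1. Whole cultures were measured rather than sorted cells. No source says that replicates came from separate mice, so p-values measure only the spread between these libraries, which may be technical.

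Cholesterol is built in the cytosol and the endoplasmic reticulum. Acetyl-CoA is joined into HMG-CoA, which is reduced to mevalonate. Mevalonate is phosphorylated and decarboxylated to isoprene units, which are joined to farnesyl diphosphate, squalene and lanosterol, and lanosterol is trimmed to cholesterol. When membranes run short of sterol, the transcription factor SREBP2 is released from the endoplasmic reticulum and binds sterol regulatory elements in the promoters of these genes, often beside a CCAAT box bound by NF-Y. In the intestine, enterocytes also take cholesterol up from the lumen through Npc1l1, esterify it with Soat2 and pack it into lipoproteins.

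Promoters of 4 of the enzymes are printed 5′ to 3′ on the strand of the gene. They were picked because Hmgcs1, Mvd and the pair of Sqle and Lss showed different patterns over the cultures, with Sqle and Lss alike. Capitals mark TCACNCCAC, a form of the sterol regulatory element, and CCAAT, the NF-Y box, which reads ATTGG on the other strand. The Hmgcs1 promoter, at chr13:119690151-119690350 on the plus strand of GRCm38.p6, is from RefSeq. Those of Mvd, at chr8:124967323-124967522 on the minus strand, and of Lss, at chr10:75994150-75994332 on the plus strand, are mm9 sequence before RefSeq starts, and that of Sqle, at chr15:59146436-59146631 on the plus strand, is mm9 sequence before a GENCODE start. The mm9 stretches hold no annotated exon, and that of Hmgcs1 ends at the base before the RefSeq start.
Hmgcs1: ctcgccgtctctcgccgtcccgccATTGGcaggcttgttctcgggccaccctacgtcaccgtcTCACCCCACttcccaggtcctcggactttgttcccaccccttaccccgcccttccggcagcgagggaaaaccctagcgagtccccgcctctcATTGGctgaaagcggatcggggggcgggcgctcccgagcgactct
Mvd: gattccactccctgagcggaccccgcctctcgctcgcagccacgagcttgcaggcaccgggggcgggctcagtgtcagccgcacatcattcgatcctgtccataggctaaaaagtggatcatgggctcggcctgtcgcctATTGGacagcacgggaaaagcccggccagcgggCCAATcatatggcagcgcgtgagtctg
Sqle: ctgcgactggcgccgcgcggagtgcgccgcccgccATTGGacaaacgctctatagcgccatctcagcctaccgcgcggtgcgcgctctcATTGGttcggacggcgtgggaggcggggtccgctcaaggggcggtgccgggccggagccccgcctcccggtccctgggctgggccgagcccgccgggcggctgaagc
Lss: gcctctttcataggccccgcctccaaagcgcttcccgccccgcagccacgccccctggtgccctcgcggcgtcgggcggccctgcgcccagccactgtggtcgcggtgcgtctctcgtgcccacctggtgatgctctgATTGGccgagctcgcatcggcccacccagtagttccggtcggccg
The Hmgcs1 promoter held TCACCCCAC, which fits TCACNCCAC, from 137 to 129 bases before the start, on the sense strand. It was the only match to TCACNCCAC among the 9 enzymes, in windows of 300 bases for mm9 and a shorter one for Hmgcs1, while 1.15% of 22222 protein-coding promoters of 300 bases held one on either strand. CCAAT was found at 8 of the 9 enzymes and in 39% of all promoters, but the count depends on the start used: Cyp51 had its match before the RefSeq start and none before its more upstream GENCODE start, and Dhcr7, the exception at its most upstream start, had matches before downstream ones. CAAAGTCCA, a motif of Hnf4 factors, was found at 0 of 9 and in 0.468% of all promoters. These motifs do not overlap in the 4 promoters, and a match describes letters only.

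Levels of different genes were compared in TPM, which counts reads per length of transcript. Fdps, which makes farnesyl diphosphate, had the highest TPM of the 9 in every culture, with 826 ± 40.9 in CV, 608 ± 14.9 in ENR and 637 ± 19.8 in EN (mean ± SD, n = 4). Dhcr7, which catalyses the last step of the Kandutsch-Russell branch to cholesterol, had the lowest, with 23.2 in CV, 12.4 in ENR and 26.0 in EN. In CV the order between them was Hmgcs1 (288), Cyp51 (218), Sqle (171), Fdft1 (118), Lss (80.03), Mvd (65.9) and Idi1 (53.3), and no neighbours in that order overlapped. In ENR, Cyp51 (163) and Hmgcs1 (162) overlapped, as did Idi1 (49.6) and Lss (47.1), while Sqle stood at 100.01, Fdft1 at 89.7 and Mvd at 77.4. In EN, Hmgcs1 (228) and Cyp51 (209) again followed Fdps, and Sqle (89.0), Fdft1 (88.7) and Mvd (85.7) overlapped each other before Idi1 (58.7) and Lss (41.4). Lss thus moved from the sixth place in CV to the eighth in EN.

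Most of the enzymes were lower in ENR than in CV, and most were higher in EN than in ENR, whereas EN and CV differed in both directions. Changes within a gene were measured as CPM, counts relative to the library size after scaling by TMM, and tested with edgeR's quasi-likelihood test in 1 fit of 12 libraries, with Benjamini-Hochberg adjustment over the 9288 transcripts tested and a call at an adjusted p under 0.01. All 9 enzymes passed the filter on low counts. Between ENR and CV, 7 were lower and 1 was higher, where 30.2% of all transcripts were called lower and 29.8% higher. Between EN and ENR, 6 were higher and 0 lower (1 and 2 with library sizes from spike-ins), against 35.5% and 37.2% of all transcripts, and also 0 were lower by DESeq2 or at an unadjusted p under 0.05. Between EN and CV, 4 were higher and 2 lower, against 35.2% and 41.2%. The median log2 fold change over the enzymes was -0.29 from CV to ENR, where the median of all transcripts was 0.01. It was 0.31 from ENR to EN, beside -0.01, and -0.02 from CV to EN, beside -0.08. The comparisons share libraries, so they are not independent of each other.

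How many enzymes were called in EN depended on how libraries were scaled. With deposited TPM and limma in place of CPM, the median of all transcripts moved to -0.34 from CV to EN, to -0.14 from ENR to EN and to -0.13 from CV to ENR, and the calls over all transcripts became 24.4% higher and 53.6% lower for EN against CV, 28.8% and 43.6% for EN against ENR, and 20.4% and 40% for ENR against CV. On this scale 1 enzyme was higher and 5 were lower in EN than in CV, 4 were higher and 2 lower in EN than in ENR, and ENR against CV stayed at 1 higher and 7 lower. Library sizes taken from the spike-ins, RNA of known amount added to each sample, put the median of all transcripts at -0.49 from CV to EN and at -0.52 from ENR to EN. With these sizes 0 were higher and 3 lower in EN than in CV, 1 and 2 in EN than in ENR, and 0 and 2 in ENR than in CV. The authors' mRNA copies, also scaled to spike-ins, put the median of all transcripts at 0.695 and 1.02, that is, on the other side of 0, and gave 5, 9 and 0 higher and 0, 0 and 2 lower. Size factors shift all transcripts of a library alike, and TPM does so nearly, apart from its pseudocount. The distance of the enzymes' median from that of all transcripts therefore hardly moves with either by construction. Over 3 pseudocounts on TPM and copies, that distance was 0.235 to 0.34 for EN against ENR, -0.343 to -0.166 for ENR against CV, and -0.0792 to 0.159, on either side of 0, for EN against CV. These values describe 9 genes chosen by name, and why the scales differ was not tested.

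**Figure D1:**
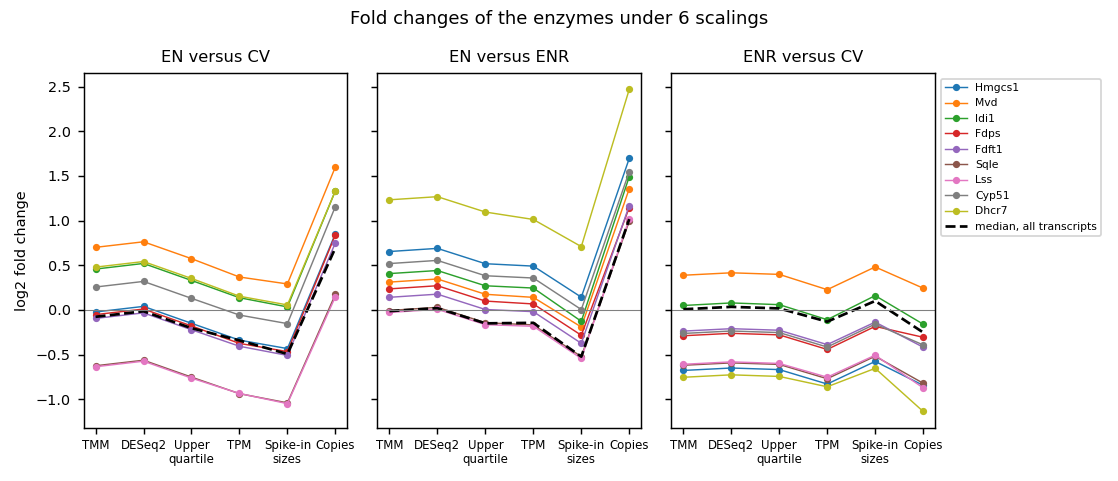
Log2 fold changes of the 9 enzymes (points, y axis) under 6 ways of scaling the libraries (x axis) in the 3 comparisons, with dashes for the median of all transcripts tested. The points move up and down together with the dashes: for EN against CV the dashes run from -0.49 with spike-in sizes to 0.695 with copies.

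The early enzymes make isoprene units. Hmgcs1, the cytosolic synthase that forms HMG-CoA, had 628, 605, 649.7 and 566 CPM in the 4 CV libraries, 390.0, 374, 383 and 383 in ENR, and 622, 589.9, 613 and 584 in EN. ENR lay below both other cultures without overlap, while CV and EN overlapped. From CV to ENR Hmgcs1 fell by 0.68 ± 0.0414 on the log2 scale (± SE, adjusted p = 1.57e-09, 1.60-fold), and from ENR to EN it rose by 0.65 ± 0.0417 (adjusted p = 8.15e-10, 1.57-fold), which became 0.14 with spike-in sizes (adjusted p = 0.455). Between EN and CV the log2 fold change was -0.02 ± 0.0409 (adjusted p = 0.624).

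Mvd, the decarboxylase that gives isopentenyl diphosphate, had 65.8, 66.9, 67.3 and 64.5 CPM in CV, 87.2, 82.6, 86.9 and 89.2 in ENR, and 121, 107, 105 and 96.9 in EN. It was the only enzyme called higher in ENR than in CV, and its 3 cultures did not overlap. The log2 fold change was 0.39 ± 0.0595 from CV to ENR (adjusted p = 3.35e-05) and 0.70 ± 0.0593 from CV to EN (adjusted p = 2.27e-08, 1.63-fold). From ENR to EN it was 0.31 ± 0.0583 (adjusted p = 0.000158), which turned to -0.19 with library sizes from the spike-ins. With spike-in sizes or copies, Mvd was not called higher in ENR than in CV.

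Idi1, the isomerase that makes dimethylallyl diphosphate from isopentenyl diphosphate, had 89.6, 94.8, 93.0 and 88.6 CPM in CV, 78.1, 106, 98.2 and 97.7 in ENR, and 116, 127, 127 and 134 in EN. CV and ENR overlapped (log2 fold change 0.05 ± 0.0757, adjusted p = 0.572), and EN lay above both. It rose by 0.46 ± 0.075 from CV to EN (adjusted p = 4e-05) and by 0.41 ± 0.0753 from ENR to EN (adjusted p = 0.000144), the latter becoming -0.13 with spike-in sizes. Its counts were not whole numbers, since reads were shared with other transcripts.

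Fdps, which joins isoprene units to farnesyl diphosphate, also the source of prenyl groups, had 572, 570.5, 601 and 521 CPM in CV, 462, 471, 472 and 449 in ENR, and 556, 567, 532 and 530.4 in EN. As for Hmgcs1, ENR was the lowest and CV and EN overlapped, but the steps were smaller. The log2 fold change was -0.29 ± 0.0422 from CV to ENR (adjusted p = 2.16e-05), 0.24 ± 0.0425 from ENR to EN (adjusted p = 0.00011; -0.28 with spike-in sizes) and -0.05 ± 0.0422 from CV to EN (adjusted p = 0.266).

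The next 3 enzymes build the sterol skeleton. Fdft1, squalene synthase, the first step given over to sterols alone, had 274, 246, 286 and 253 CPM in CV, 227, 224, 226 and 223 in ENR, and 258, 259.5, 238 and 238 in EN. It fell by 0.24 ± 0.048 from CV to ENR (adjusted p = 0.000462). EN lay above ENR in all 4 libraries, by 0.14 ± 0.0487 on the log2 scale, but the adjusted p of 0.0148 missed the threshold. In TPM, ENR and EN overlapped, at 89.0 to 90.5 and 84.3 to 93.9. CV and EN overlapped in CPM (log2 fold change -0.09 ± 0.0481, adjusted p = 0.0835).

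Sqle, squalene epoxidase, which adds oxygen to squalene, had 274, 278, 291 and 273 CPM in CV, 173, 184, 192 and 178 in ENR, and 192, 181, 179.8 and 171 in EN. CV alone stood high, and ENR and EN overlapped. From CV it fell by 0.62 ± 0.0429 to ENR (adjusted p = 6.23e-09) and by 0.62 ± 0.0433 to EN (adjusted p = 2.06e-09, 1.54-fold), whereas the authors' copies gave 0.175 for EN against CV. Between EN and ENR the log2 fold change was -0.01 ± 0.0444 (adjusted p = 0.913; 0.99 with copies). In TPM the mean was lower in EN (89.0) than in ENR (100.01), with overlapping libraries.

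Lss, which closes squalene epoxide into lanosterol, showed the same order, with 318, 317, 328 and 292 CPM in CV, 206, 203, 214 and 201 in ENR, and 204, 197, 207 and 199 in EN. It fell by 0.61 ± 0.0394 from CV to ENR (adjusted p = 2.92e-09) and by 0.64 ± 0.0398 from CV to EN (adjusted p = 5.8e-10, 1.55-fold; 0.15 with copies). ENR and EN overlapped in CPM, with a log2 fold change of -0.03 ± 0.0406 (adjusted p = 0.546; 1.02 with copies). In TPM, EN lay below ENR without overlap, at 40.2 to 42.8 against 45.9 to 49.0.

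The last 2 enzymes trim lanosterol. Cyp51, the demethylase that starts this, had 593, 594, 612 and 513 CPM in CV, 484, 474, 489 and 480.5 in ENR, and 709, 712, 668 and 673 in EN. The 3 cultures did not overlap, with ENR lowest and EN highest. It fell by 0.26 ± 0.0478 from CV to ENR (adjusted p = 0.000176) and rose by 0.52 ± 0.048 from ENR to EN (adjusted p = 7.49e-08, 1.43-fold), the latter becoming 0.01 with spike-in sizes (adjusted p = 0.981). EN was above CV by 0.26 ± 0.0476 (adjusted p = 0.000133), but this turned to -0.06 on TPM and -0.15 with spike-in sizes. Its counts too were not whole.

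Dhcr7, which reduces 7-dehydrocholesterol to cholesterol, had 36.7, 40.0, 38.2 and 42.3 CPM in CV, 22.9, 28.5, 21.0 and 21.4 in ENR, and 60.2, 56.3, 55.5 and 47.5 in EN. Here too the 3 cultures did not overlap, in the same order as for Cyp51. It fell by 0.75 ± 0.0978 from CV to ENR (adjusted p = 6.25e-06) and rose by 1.23 ± 0.097 from ENR to EN (adjusted p = 1.09e-08, 2.35-fold), and the rise was called under every scaling tried. From CV to EN it rose by 0.48 ± 0.0908 (adjusted p = 0.000165; 0.15 on TPM). This 2.35-fold step was the only change of the 9 enzymes that was called and passed a 2-fold limit, which left 1 enzyme for EN against ENR and 0 for either other comparison, while of all transcripts 35.4% passed it for EN against CV, 30.1% for EN against ENR and 12.9% for ENR against CV.

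**Figure D2:**
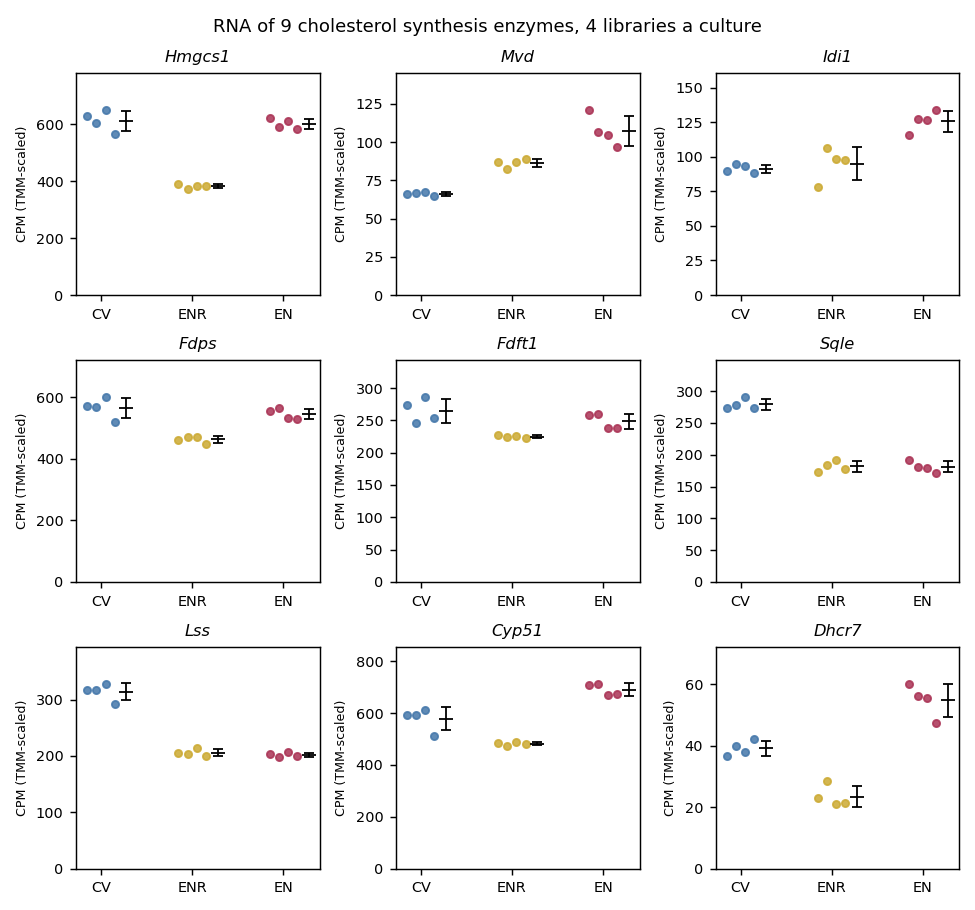
CPM (y axis) of the 9 enzymes in each RNA library of CV, ENR and EN (x axis, points), with the mean and SD of the 4 libraries. ENR lies below CV and EN for Hmgcs1, Fdps, Fdft1, Cyp51 and Dhcr7, while Sqle and Lss are high in CV only and Mvd climbs from CV through ENR to EN.

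The libraries of the 2 groups compared did not overlap for 7 enzymes lower and 1 higher in ENR than in CV, for 7 higher in EN than in ENR, and for 4 higher and 2 lower in EN than in CV. Over all transcripts, groups did not overlap in 65.7%, 74.2% and 76.5% of cases. Over the 12 libraries, which fall into 3 cultures so that a correlation mostly follows the culture means, Sqle and Lss had a Pearson's r of 0.987, Hmgcs1 and Fdps 0.945, Cyp51 and Dhcr7 0.906, and Mvd and Lss -0.866. The mean log2 profile of the 9 enzymes correlated most with Hmgcs1 (0.975) and least with Mvd (0.0841). The transcripts outside the list whose profile was most like that mean were Gcnt2 (0.985), H2-Q10 (0.981), Itpk1 (0.981), Mlf2 (0.981) and Acadvl (0.979), and Gcnt2 had mean levels of 60.4 CPM in CV, 28.85 in ENR and 62.4 in EN.

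Of 13 further enzymes of cholesterol synthesis, 12 were in the table, as 13 transcripts. Of these transcripts 8 were higher and 2 lower in EN than in ENR, 2 were higher and 5 lower in ENR than in CV, and 5 were higher and 2 lower in EN than in CV, with median log2 fold changes of 0.53, -0.24 and 0.10. These counts stand beside the shares of all transcripts, 35.5% higher and 37.2% lower for EN against ENR, 29.8% and 30.2% for ENR against CV, and 35.2% and 41.2% for EN against CV, which hold for each list that follows too. Sc5d, the desaturase just before Dhcr7, had means of 188 CPM in CV, 129 in ENR and 290.0 in EN, and rose by 1.17 from ENR to EN (adjusted p = 6.86e-13). Hsd17b7 and Msmo1, which act on the methyl groups left after Cyp51, had 133.5, 72.7 and 114 CPM and 494, 329.7 and 445 CPM. The 2 proteins that can reduce the sterol after Cyp51 went in opposite directions. Lbr, also a protein of the nuclear lamina, had means of 188 CPM in CV, 356 in ENR and 111 in EN (log2 fold change -1.68 from ENR to EN, adjusted p = 1.1e-14), and Tm7sf2 had 51.8, 35.6 and 61.6 CPM (0.79, adjusted p = 2.45e-09). Acat2, the cytosolic thiolase at the start of the path, was lower in EN than in ENR (-0.50, adjusted p = 8.79e-08).

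**Figure D3:**
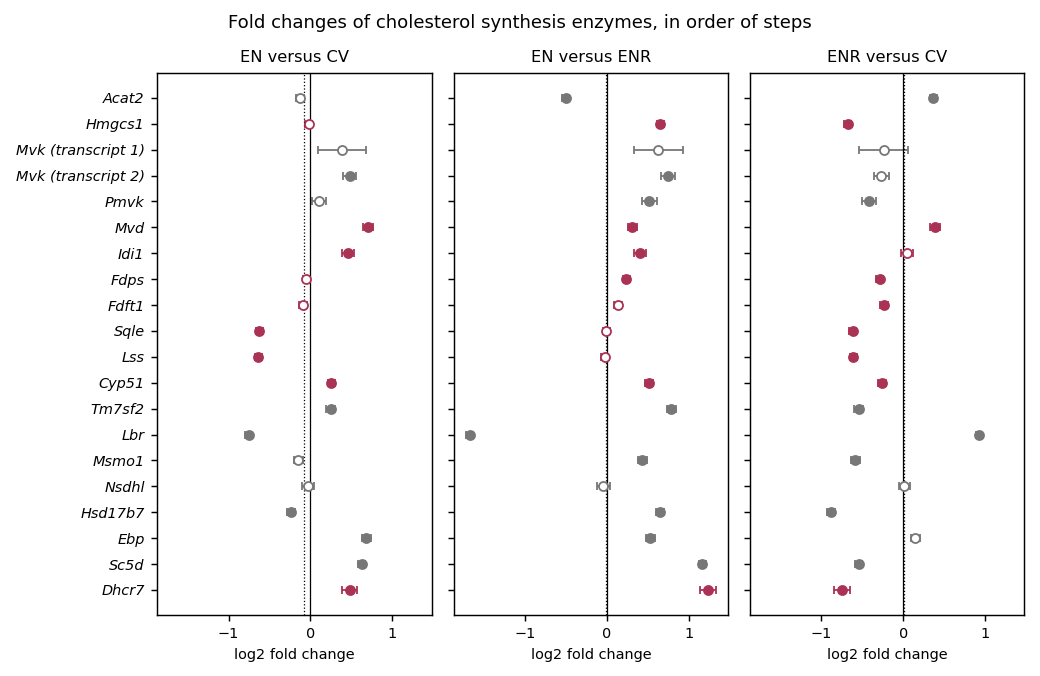
Log2 fold change ± SE (x axis) of the 9 enzymes and other transcripts of cholesterol synthesis in the order of their steps (y axis), for the 3 comparisons, with the 9 enzymes in red, filled points at an adjusted p under 0.01 and a dotted line at the median of all transcripts. Between ENR and EN most points lie right of the line, from 0.24 for Fdps to 1.23 for Dhcr7 among the called enzymes, and Lbr lies far to the left at -1.68.

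Genes that control SREBP were measured in part. Of 12, 6 were in the table, of which 4 rose from CV to EN, 4 rose from ENR to EN and 2 rose from CV to ENR, and 0 were called lower. Srebf2, which encodes SREBP2 itself, was not called, with 117 ± 2.77 CPM in CV, 111 ± 5.05 in ENR and 126 ± 12.5 in EN. Erlin1, a protein of the endoplasmic reticulum, was among those that rose in EN (log2 fold change 1.52 against CV, adjusted p = 4.35e-14). Of 12 genes of sterol uptake and transport, 6 were higher and 5 lower in EN than in CV, 6 and 5 in EN than in ENR, and 3 and 8 in ENR than in CV. Among them, Npc1l1 had means of 59.8 CPM in CV, 44.9 in ENR and 164 in EN.

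Of 11 genes of sterol efflux and storage, 7 were in the table. In EN, 6 of them were higher and 1 lower than in either other culture, and 4 were higher and 3 lower in ENR than in CV. The lower gene was Soat1, the widespread enzyme that esterifies cholesterol, with 249 CPM in CV, 148 in ENR and 27.2 in EN, whereas Soat2, its counterpart in enterocytes, had 25.03, 58.0 and 249 CPM. Abcg5 and Abcg8, which together return sterols to the lumen, had 161, 142 and 711.5 CPM and 96.2, 114 and 509 CPM. SREBP1, a relative of SREBP2, drives fatty acid synthesis. Of 14 transcripts of that list (13 genes), 0 were higher and 10 lower in EN than in CV, 5 higher and 8 lower in EN than in ENR, and 3 higher and 10 lower in ENR than in CV. Scd1 (492, 172 and 469 CPM in CV, ENR and EN) had its minimum in ENR, as Hmgcs1 did, while Fads1 (211, 155 and 18.8 CPM) had its minimum in EN. The isoprenoid branch, which uses farnesyl diphosphate for other products, had 4 transcripts higher and 6 lower in EN than in CV, 2 and 6 in EN than in ENR, and 4 and 2 in ENR than in CV, out of 12. Of 7 transcripts of acetyl-CoA supply and mitochondrial HMG-CoA, 2 were higher and 4 lower in EN than in CV, 3 and 4 in EN than in ENR, and 0 and 4 in ENR than in CV.

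The mixture of cell types differed between cultures along with the enzymes. Summed over marker lists, TPM of 5 stem cell genes was 236 to 274 in CV, 912 to 996 in ENR and 16.6 to 18.4 in EN. Although CV was made to enrich stem cells, 4 of these 5 genes were called higher in ENR than in CV and 0 lower, whereas 5 of 5 were lower in EN than in ENR. The sum in ENR was carried by Olfm4 (mean 10.9 CPM in CV, 1229 in ENR and 0.594 in EN), while Lgr5 had 90.1, 129 and 1.81 CPM. These are 5 chosen genes on a relative RNA scale. The paper, by contrast, reports that stem cell markers were enriched in CV in RNA and protein. It also shows by microscopy that cells with the Lgr5 GFP reporter dominated CV but lay only at crypt bottoms in ENR. Proliferation genes summed to 719 to 757, 771 to 803 and 162 to 174. Enterocyte genes were high in all cultures, at 19440 to 20560 in CV, 9018 to 10460 in ENR and 47880 to 54700 in EN, so that ENR had the lowest sum. Of these 7 genes, 2 were called higher and 4 lower in ENR than in CV, and 7 higher in EN than in ENR. Paneth cell genes were highest in ENR, from 19620 to 20910, against 8470 to 9390 in CV and 4145 to 4772 in EN. In the order CV, ENR and EN, goblet cell genes summed to 1671 to 1792, 2807 to 3020 and 6201 to 7418, enteroendocrine genes to 33.5 to 54.6, 507 to 526 and 1333 to 1601, and tuft cell genes to 1.01 to 2.41, 16.85 to 18.15 and 32.0 to 43.2. Every transcript tested of the goblet (5), enteroendocrine (3) and tuft cell (4) lists was called higher in EN than in ENR. The paper, however, reports no enrichment in EN over ENR for Muc2, Dclk1 and Reg4, its markers of goblet, tuft and enteroendocrine cells. In CV, ENR and EN, genes of cells outside the epithelium summed to 2.84 to 3.98, 6.45 to 7.72 and 16.3 to 20.8. Of these, Vim, a filament protein of mesenchyme (2.96, 7.96 and 23.3 CPM), and Ptprc, a surface protein of leukocytes (0.0331, 1.16 and 2.64 CPM), were called higher in EN than in CV. The other 2 of the 4 transcripts tested were not called there, and 1 of the 4 was lower in ENR than in CV. In CV the mean of Ptprc lay below 3 counts, which are 0.361 to 0.642 CPM. The part of these mixtures in the enzymes' levels was not tested, and in bulk samples fewer cells of a type and less RNA per cell cannot be told apart.

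Chromatin at the start sites was open in all cultures, and on the deposited scaling it was more open in EN at some of the genes. A region of the deposited union of peaks lay within 500 bp of a start for 8 of the 9 enzymes. Hmgcs1 was not placed on an mm9 chromosome and has no region here. ATAC-seq, which measures open chromatin, was compared as deposited normalized scores with limma on log2(score + 1) over 94166 regions, at an adjusted p under 0.05. Between EN and CV, 5 of 8 regions were higher in EN and 0 lower, against 19.6% and 15.6% of all regions. Between EN and ENR, 4 were higher and 0 lower, against 11.6% and 12.5%. With only regions of a mean score of at least 10, the counts stayed at 5 and 4, against 31.1% and 20.1% of regions called higher. Between ENR and CV 0 were called by limma, against 15.8% of all regions, and 1 had an unadjusted p under 0.05. The median log2 difference over the 8 was 0.28 from CV to EN, beside 0.05 for all regions, and 0.26 from ENR to EN, beside -0.01. These counts rest on the deposited scaling. Libraries differed in their summed ATAC scores (CV 1752385 to 1840402, ENR 1897795 to 1962331, EN 1993594 to 2109261), and with scores divided by these sums, which moved the median of all regions from CV to EN to -0.09, only 2 were higher in each of the first 2 comparisons. With quantile normalization 0 were higher and 1, Mvd, was lower in EN than in CV, and 1 was higher and 1 lower in EN than in ENR.

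Among the 8 start regions, the largest ATAC difference from CV to EN was at Fdft1 (chr14:63796048-63797131, mm9), with scores of 164, 156, 134 and 149 in CV, 173, 178, 145 and 185 in ENR, and 219, 242, 212 and 193 in EN. EN lay above both other cultures, by 0.52 ± 0.102 over CV (adjusted p = 0.000593) and 0.35 ± 0.102 over ENR (adjusted p = 0.0184). Lss (chr10:75993875-75995169) had 168, 161, 140 and 149 in CV, 200, 173, 155 and 179 in ENR, and 196, 236, 217 and 214 in EN. It rose by 0.48 ± 0.0976 from CV (adjusted p = 0.000819) and by 0.29 ± 0.0976 from ENR (adjusted p = 0.0383), where the libraries overlapped.

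At Sqle (chr15:59146011-59146932) the scores were 191, 188, 192 and 177 in CV, 162, 171, 159 and 154 in ENR, and 220, 226, 277 and 216 in EN. ENR lay lowest without overlap, and EN stood above ENR by 0.53 ± 0.0904 (adjusted p = 0.000331) and above CV by 0.32 ± 0.0904 (adjusted p = 0.00963). Sqle and Lss were thus more open in EN than in CV on the deposited scaling, while their RNA was lower in EN. Cyp51 (chr5:4103178-4104988) had means of 177.5 in CV, 177 in ENR and 229.8 in EN, with 0.38 for EN over either (adjusted p = 0.00495 and 0.00816). Idi1 (chr13:8884587-8885894) rose by 0.25 ± 0.0873 from CV to EN (adjusted p = 0.0346), but with quantile normalization the difference was -0.08. Mvd (chr8:124966472-124968649), Fdps (chr3:88904321-88906205) and Dhcr7 (chr7:151007606-151009071) were not called, with differences of -0.09, 0.09 and -0.01 between EN and CV. A further region near downstream starts of Dhcr7 (chr7:151016353-151016842) had low scores that were lower in EN, with 4, 6, 8 and 12 in CV, 4, 4, 3 and 5 in ENR, and 1, 1, 2 and 2 in EN (-1.71 ± 0.328 from CV to EN, adjusted p = 0.000489).

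**Figure D4:**
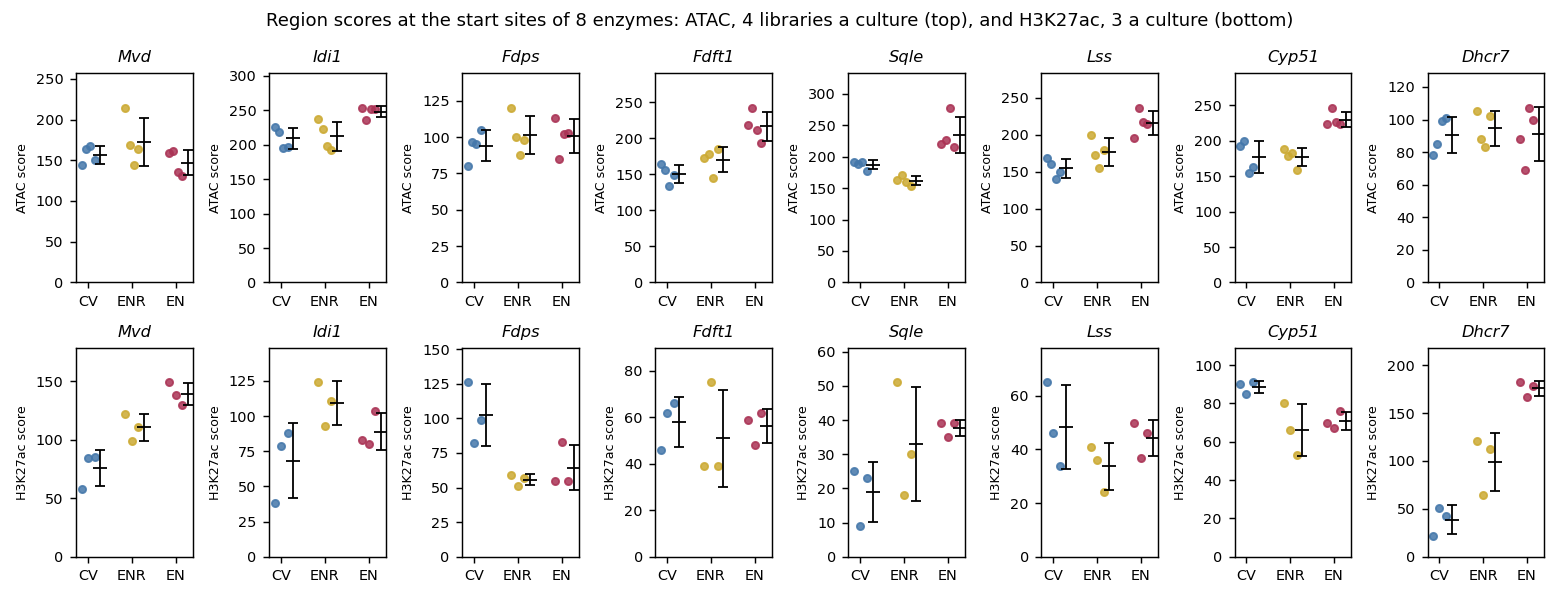
Deposited normalized scores (y axis) of ATAC-seq (4 libraries per culture) and H3K27ac (3 per culture) at the start regions of 8 enzymes in CV, ENR and EN (x axis, points). ATAC scores of Fdft1 and Cyp51 lie highest in EN, and H3K27ac at Dhcr7 runs from 22 to 51 in CV to 167 to 182 in EN.

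H3K27ac, a mark of active promoters and enhancers, was called at 2 of the 8 start regions as higher in EN than in CV (5.07% of all regions) and at 1 as higher in ENR than in CV (1.29%). With only regions of a mean score of at least 10, the counts stayed at 2 and 1, against 21.2% and 5.88% of regions. The median from CV to EN was then 0.211 over the 8 and 0.345 over the regions kept. Between EN and ENR 0 were called by limma, against 1.57% in either direction, and 1 had an unadjusted p under 0.05. With quantile normalization or scores divided by library sums, EN against CV had 1 region higher, Dhcr7, and 1 lower, Fdps (-1.16, adjusted p = 0.0157, and -0.97, adjusted p = 0.0404). At the Dhcr7 region the scores were 22, 51 and 43 in CV, 121, 64 and 112 in ENR, and 182, 167 and 178 in EN. The difference was 2.24 ± 0.301 from CV to EN (adjusted p = 6.25e-06) and 1.36 ± 0.301 from CV to ENR (adjusted p = 0.0109). This region also holds the start of Nadsyn1, an enzyme of NAD synthesis on the opposite strand, whose RNA rose from 50.9 CPM in CV to 74.2 in ENR and 117 in EN, so the mark cannot be assigned to either gene alone. At the internal starts of Dhcr7 (chr7:151015472-151016239) the scores were 10, 36 and 37 in CV, 55, 38 and 32 in ENR, and 45, 74 and 63 in EN, with a difference of 1.28 ± 0.424 between EN and CV (adjusted p = 0.0619).

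Mvd had H3K27ac scores of 58, 84 and 85 in CV, 122, 99 and 111 in ENR, and 149, 138 and 130 in EN. The means rose in the order of its RNA. The steps from CV to ENR and from ENR to EN were not called by limma (adjusted p = 0.239 and 0.627). This region also holds the start of a pseudogene, 9330133O14Rik, on the opposite strand. EN lay above CV by 0.89 ± 0.242 (adjusted p = 0.0193). Leaving out any of CV replicate 3 and EN replicates 2, 3 and 4 ended this call, as leaving out any of CV replicates 3 and 5, ENR replicates 1 and 4 and EN replicates 3 and 4 ended that of Dhcr7 between ENR and CV, at differences of 0.709 to 0.934 and 1.01 to 1.48. H3K4me3, a mark of active starts, was called at 0 of 8 in each comparison by limma, against 4.9% of all regions for EN and CV, 6.18% for EN and ENR and 1.13% for ENR and CV, and 3, 3 and 0 had an unadjusted p under 0.05. Nearest to a call were Cyp51 (0.46) and Dhcr7 (0.76) between EN and ENR, both at an adjusted p of 0.0508. H3K27me3, a mark of repressed genes, had scores of 1 to 20 at all 8 regions and was called at 0 in each comparison by limma (0.528%, 0.0127% and 0.74% of all regions for EN and CV, EN and ENR, and ENR and CV), with 0 at an unadjusted p under 0.05.

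Within 25 kb of the starts lay 55 regions, some of which can belong to other genes. In ATAC, 13 of these were higher and 6 lower in EN than in CV, 10 were higher and 5 lower in EN than in ENR, and 0 were called between ENR and CV, where the shares of all regions were 19.6% and 15.6%, 11.6% and 12.5%, and 15.8%. The 55 include the 8 start regions, and the 13 and 10 include the 5 and 4 of those called above. With quantile normalization the first 2 comparisons had 8 higher and 8 lower and 7 higher and 6 lower, and with library sums 10 and 7 and 7 and 5. Around Fdft1 the regions moved in opposite directions. While its start was more open in EN, a region 13087 bp from the start (chr14:63783097-63783989) had mean scores of 42.0 in CV and 15.0 in EN (-1.49 ± 0.214, adjusted p = 2.83e-05), and a region 5169 bp away (chr14:63791309-63791612) had 43.0 in CV, 31.5 in ENR and 9.25 in EN (-2.18 ± 0.248 from CV to EN, adjusted p = 2.45e-06). Near Dhcr7, a region 17916 bp away (chr7:150991007-150991305) rose from 3.00 in CV to 21.0 in EN (2.53 ± 0.325, adjusted p = 8.93e-06). Near Sqle, a region 4849 bp away (chr15:59151423-59151599) rose from 7 in CV and 3.50 in ENR to 16.75 in EN.

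Hnf4g, a nuclear receptor of enterocytes, was measured in 1 library per culture, so that no test between cultures was possible. The libraries held 84340 reads within regions in CV, 352600 in ENR and 1816497 in EN, and 3 reads stand for 35.6, 8.51 and 1.65 RPM, reads relative to all reads of the library within regions. In EN, where the depth was greatest, Lss had 131 reads (72.1 RPM, exact Poisson 95% interval 60.3 to 85.6), Dhcr7 101 (55.6), Sqle 95 (52.3, 42.3 to 63.9), Fdft1 66 (36.3), Cyp51 60 (33.0), Mvd 55 (30.3), Fdps 36 (19.8) and Idi1 25 (13.8). By reads per region, not corrected for region length, Lss lay above 97.3% of all regions in EN and Idi1 above 82%. The same ranking put Lss above 99.3% of regions in CV with 12 reads, so these ranks alone do not show binding. Sqle stood out, since the ENR library had 0 reads there, for which the exact interval reaches 10.5 RPM, below the interval in EN. The order was the other way in the Dhcr7 region, which also holds the Nadsyn1 start. That region had 38 reads and 108 RPM in ENR (76.3 to 148) against an interval of 45.3 to 67.6 in EN. At the internal starts of Dhcr7, ENR had 5 reads (14.2 RPM, 4.6 to 33.1) and EN had 64 (35.2 RPM, 27.1 to 45), with overlapping intervals. Lss had 12 reads in CV (142 RPM, 73.5 to 249) and 18 in ENR (51.0, 30.3 to 80.7). In CV, Dhcr7 had 4 reads (47.4 RPM, 12.9 to 121) and the others 0 to 3, so that differences from CV were not detectable at this depth. Intervals cover counting error only.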

How the data were processed

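RNA, ATAC-seq and ChIPmentation libraries of CV, ENR and EN organoids were grouped by the sample labels, and 54 of 66 samples have a column in the tables used here, while 12 were not used here. The RNA table, as the authors deposited it, holds expected counts for each transcript, estimated with kallisto (0.43.0 per the labels) against RefSeq transcripts whose proteins had been quantified, beside TPM from the same deposited table and mRNA copies, a signal scaled to 92 spike-in transcripts by the authors. For chromatin, reads were aligned to mm9 with BWA and peaks called with MACS2, and the deposited score of each merged peak region is normalized and rounded to whole numbers. Hnf4g was deposited as raw counts of reads in the same 94469 regions.

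Expected counts were rounded, transcripts detected (count over 0) in 4 or more of the 12 libraries were kept (9288 of 9481), and cultures were compared with edgeR 4.0.16 (TMM, quasi-likelihood) in R 4.3.3. Spike-ins were left out of library sizes. Libraries held 5630977 to 8859757 counts, so that 3 counts are 0.361 to 0.642 CPM. Replicates differed beyond sampling noise (chi-square over degrees of freedom 2.37 to 6.57 between libraries of a culture), and none was counted as a duplicate. Regions above 0 in at least 3 libraries were compared with limma 3.58.1 on log2(score + 1) with a trend of the spread. The region of a gene is the region within 500 bp of an annotated start with the highest mean H3K4me3 score. Region coordinates are printed as the authors' table gives them. Hnf4g reads have exact Poisson intervals. PCR copies are not independent molecules, so intervals cover only the counting error, and depth behind the scores is unknown. Scripts were tested on simulated data. Members and gene lists were chosen with earlier results of these data known, and all members are named. Some genes of the wider lists are counted but not reported here by name. Alternatives were other scalings (DESeq2 1.42.0 size factors, upper quartile, spike-ins, TPM with pseudocounts of 0.1, 1 and 5, copies), filters, thresholds, normalizations of scores, a replicate block and each library left out.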

Additional observations from a re-analysis of the deposited data

Results flagged for a closer look

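In 51 groups of 4 libraries, 3 had a library that stood apart from the others by Dixon's criterion for 4 values at 95%, and chance flags about 1 in 20 groups. All were ATAC scores at start regions in EN. At Idi1, EN replicate 2 had 236 where the others had 251 to 253. At Sqle, EN replicate 3 had 277 where the others had 216 to 226. At Cyp51, EN replicate 2 had 246 where the others had 223 to 226. Without EN replicate 3, Sqle remained higher in EN than in CV and ENR at an adjusted p under 0.05 by limma. Without EN replicate 2, Idi1 remained higher in EN than in CV, and Cyp51 remained higher than in CV and ENR.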

How the results depend on the processing

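The RNA calls changed mainly with the scaling of the libraries. For EN against CV (6 called, 4 higher and 2 lower), upper quartile factors gave 5 lower, spike-in sizes 3 called with 0 higher, each TPM pseudocount 1 higher and 5 lower, and copies 5 higher and 0 lower. For EN against ENR (6 higher, 0 lower), upper quartile factors gave 2 lower, spike-in sizes 3 called (1 higher, 2 lower), and TPM 2 lower with 3 higher at a pseudocount of 0.1, while DESeq2 gave 7 higher and copies 9. For ENR against CV (1 higher, 7 lower), spike-in sizes and copies each gave 2 called, 0 higher and 2 lower. A 2-fold limit left 0 called for EN against CV, 1 higher for EN against ENR and 0 for ENR against CV. Among changes called by TMM or by the alternative, directions turned for EN against CV with copies at Hmgcs1 (0.854), Sqle (0.175) and Lss (0.148) and for Cyp51 with spike-in sizes (-0.152) and TPM (-0.0566, -0.0569 and -0.0556 at pseudocounts of 1, 0.1 and 5). They turned for EN against ENR with spike-in sizes at Mvd (-0.19), Idi1 (-0.126) and Fdps (-0.282) and with copies at Sqle (0.994) and Lss (1.02). Changes of sign called on neither scale are not listed, such as Fdps (0.841) and Fdft1 (0.752) with copies for EN against CV. Without each library in turn, 6 were called for EN against CV (4 higher, 2 lower), 6 to 7 for EN against ENR (0 lower) and 8 for ENR against CV (1 higher, 7 lower); Fdft1 was the 1 added without CV replicate 3. The causes were not tested.

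At start regions, ATAC for EN against CV (5) fell to 2 without a trend, 1 with quantile normalization, where Idi1 turned to -0.0762, and 2 with scores divided by library sums. For EN against ENR (4) these gave 1, 2 and 2, and an adjusted p under 0.01 gave 2, and for ENR against CV (0) quantile normalization and library sums gave 1 each. H3K27ac for EN against CV (2) gave 1 without a trend, 1 for regions that overlap a start and 1 at an adjusted p under 0.01, and for ENR against CV (1) it gave 0 under each of these and with quantile normalization. H3K4me3 (0) gave 2 for EN against CV and 1 for EN against ENR among regions with a mean score of at least 10, a filter that left no H3K27me3 region of an enzyme. Within 25 kb, EN against CV (19) gave 10 with that filter and 12 at an adjusted p under 0.01, and ENR against CV (0) gave 1 with that filter, quantile normalization, library sums or the block. With a library left out, ATAC gave 4 to 5 for EN against CV, 2 to 5 for EN against ENR (2 without ENR replicate 3 or EN replicate 2) and 0 for ENR against CV; H3K27ac gave 1 to 2, 0 to 1 and 0 to 1; H3K4me3 gave 0 to 1, 0 to 1 and 0; H3K27me3 gave 0; and regions within 25 kb gave 14 to 19, 11 to 15 and 0 to 1. Alternatives for those regions, and the internal Dhcr7 region, were added after seeing the data.

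Replicate numbers were not taken as pairs, since the labels name nothing shared and not every same-numbered correlation was over 0.1. These were -0.0801 to 0.111 for RNA and 0.0695 to 0.46 for ATAC, against -0.446 to 0.208 between other numbers in ATAC, and 10 of 24 RNA and 16 of 24 ATAC comparisons were best with their own number, in ATAC a hint from the data and not the design. A replicate block left the RNA counts at 4 higher and 2 lower, 6 and 0, and 1 and 7, gave 5, 5 and 0 for ATAC at start regions, and gave 0 for H3K27ac in EN against CV and in ENR against CV. With the block 0% of all H3K27ac regions were called in these 2 comparisons, so their counts of 0 say nothing about the enzymes. Depth limits the Hnf4g values in CV, and the depth behind the scores is unknown.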
